A study of Mus musculus with 7 samples.

Results

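The endothelium is the single cell layer that lines blood vessels, and the endocardium is its counterpart inside the heart tube. The levels of 10 genes that mark these cells (Kdr, Flt1, Tek, Tie1, Cdh5, Pecam1, Nfatc1, Etv2, Sox17 and Emcn) were followed here in the dissected heart region of 7 mouse embryos at embryonic day 8.5. They were taken by symbol from a table of 48526 genes, each symbol was found once, and all 10 passed the filter on low counts. Control embryos (4) were Hoxb1 +/+ ; Nodal flox/+. Mutant embryos (3) were Hoxb1 Cre/+ ; Nodal flox/nul. Nodal is the secreted signal of left identity. The flox allele can be recombined where Cre is made from the Hoxb1 locus, which is active in posterior heart precursors and other posterior tissues, while the nul allele is carried by every cell. All embryos carry a flox allele and are of mixed genetic background. Cre, the changed copy of Hoxb1 and the nul allele are found in mutants only, so their effects cannot be told apart from that of losing Nodal. Each library is 1 embryo, and the comparison asks how the heart region of embryos with the mutant genotype differs from that of controls.

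In the embryo, vascular endothelium and endocardium arise from mesoderm in which the ETS-family transcription factor Etv2 is switched on for a short time. Etv2 activates the receptor Kdr and then a wider endothelial programme that other factors maintain. VEGF-A signals through Kdr, while Flt1 binds the same ligand and limits its supply. Tek is the receptor of the angiopoietins and Tie1 its co-receptor. Cdh5 and Pecam1 hold endothelial cells together, Emcn coats their surface, Sox17 acts in arterial endothelium and also in endoderm, and Nfatc1 is the factor by which endocardium is told from other endothelium.

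The GRCm38 sequence before the start of 4 of these genes is shown because Etv2 went in the other direction from the rest and is itself an ETS factor, a family that recognises the core GGAA. Each line gives 250 bases before the start from the RefSeq promoter table (GRCm38.p6), 5′ to 3′ on the strand of the gene, with every GGAA, or TTCC where the core lies on the opposite strand, in capitals. The windows are chr7:30635853-30636102 (minus strand), chr5:75978456-75978705 (minus strand), chr5:147726012-147726261 (minus strand) and chr4:94739039-94739288 (plus strand).
Etv2: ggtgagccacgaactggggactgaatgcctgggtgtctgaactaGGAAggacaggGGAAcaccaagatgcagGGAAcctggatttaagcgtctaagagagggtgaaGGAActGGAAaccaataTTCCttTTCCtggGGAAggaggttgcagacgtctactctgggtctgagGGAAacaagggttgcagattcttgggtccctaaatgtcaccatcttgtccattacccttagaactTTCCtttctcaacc
Kdr: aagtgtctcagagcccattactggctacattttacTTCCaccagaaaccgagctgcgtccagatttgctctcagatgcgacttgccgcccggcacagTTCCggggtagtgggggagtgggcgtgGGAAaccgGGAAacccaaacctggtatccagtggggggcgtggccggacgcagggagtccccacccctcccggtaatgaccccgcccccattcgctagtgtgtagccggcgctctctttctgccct
Flt1: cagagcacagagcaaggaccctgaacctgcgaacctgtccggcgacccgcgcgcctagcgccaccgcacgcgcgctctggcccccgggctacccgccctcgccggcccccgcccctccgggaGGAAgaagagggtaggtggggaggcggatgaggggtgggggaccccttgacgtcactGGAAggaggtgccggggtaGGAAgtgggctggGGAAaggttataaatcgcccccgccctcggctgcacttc
Tek: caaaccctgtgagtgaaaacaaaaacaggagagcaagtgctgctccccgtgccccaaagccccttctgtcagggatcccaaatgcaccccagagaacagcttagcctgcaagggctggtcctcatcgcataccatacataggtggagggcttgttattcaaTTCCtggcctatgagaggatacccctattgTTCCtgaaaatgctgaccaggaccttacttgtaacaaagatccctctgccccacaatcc
The Etv2 window held 10 matches, and 0.192% of the 32851 windows of the same length in the table held as many or more. The Tie1 window, not printed, held 7, a number reached by 3.82% of windows, but 212 of its 250 bases lie inside the gene as GENCODE annotates it, whose start differs from RefSeq's. Kdr, Flt1 and Emcn had 4 matches each, reached by 33.4%, and Tek had 2, reached by 76.8%. At least 1 match was present in 93.5% of all windows, so the core alone is common. The SOX core ACAAT (either strand; it can share an end letter with GGAA) had 2 matches before Tek, 1 before Emcn and 0 before Kdr, Flt1, Tie1 and Etv2, and 27.7% of all windows held it. These are counts of letters in a window, not sites of binding. The table held 6 of the 10 genes.

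Recovered reads per library ran from 7155994 to 15122057. Nodal had 9, 3, 6 and 0 reads across controls 1 to 4 and 0 in all 3 mutants, too few to check the label of control 4. Lefty2, a Nodal target, had 343 to 619 normalised counts in controls and 1.52 to 4.88 in mutants. Heart muscle was plain in every library, with Myh6 at 9674 to 35571 normalised counts. Control 3 stood apart from the other controls. Its mean log2 level over 10 cardiomyocyte markers was 11.01, against 12.32, 12.38 and 12.73 in controls 1, 2 and 4, and its mean over 12 neural tube markers was 7.58 against 4.83, 3.63 and 4.01. Mutants 2 and 3 resembled control 3 (cardiomyocyte 11.22 and 11.63, neural tube 6.58 and 7.35), and mutant 1 resembled the other controls (12.48 and 4.20). Results are therefore given with control 3 and, where it matters, without it. The file header puts the 4 females at substage E8.5e (controls 1 and 3, mutants 2 and 3) and the 3 males at E8.5f.

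No member passed the test between genotypes. Of the 10 genes, 9 had lower means in mutants and 1, Etv2, a higher mean. The median log2 fold change of the 10 was -0.20, against 0.01 over all 15599 genes tested, of which 48.3% were lower. None of the markers of heart muscle, vessel wall, neural tube and paraxial mesoderm passed either, and their medians lay farther from 0. The median was -0.26 for 10 cardiomyocyte markers, all of them lower, and -0.27 for 6 smooth muscle and pericyte markers, of which 5 were lower. The median was 1.05 for 10 tested neural tube markers and 1.31 for 6 tested paraxial mesoderm markers. Among the other marker lists, the median was -0.85 for 12 yolk sac endoderm markers, all of them lower. For 5 tested blood progenitor, platelet and macrophage markers the median was -0.45, and for 7 tested primitive erythroid markers -0.28. For 8 foregut endoderm markers, among them the member Sox17, it was -0.03, nearer 0 than for the members. None of these passed. The part of tissue content in the members' lower means was not tested. By limma on log2(normalised count + 1), 0 of the 10 had an adjusted p under 0.05, against 0.0128% of all genes tested. At an unadjusted p under 0.05 there was 1 of 10, Etv2, against 3.83% of all genes. On the recovered reads 0 members were called by edgeR, against 0.00641% of all genes, by DESeq2, against 0.0513%, and by limma-voom, which called 0 genes in all. An unadjusted p under 0.05 was given to 0 members by edgeR (573 genes in all), to 1, Etv2, by DESeq2 (446 genes) and to 0 by limma-voom (578 genes). All 10 adjusted p-values of limma were 0.967. Differences below are mutant minus control on that log2 scale, with their standard error (SE), and counts are normalised counts in embryo order. The mutant and control ranges overlapped for all 10, while 3.7% of all genes had every mutant above every control and 2.08% the reverse.

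**Figure D1:**
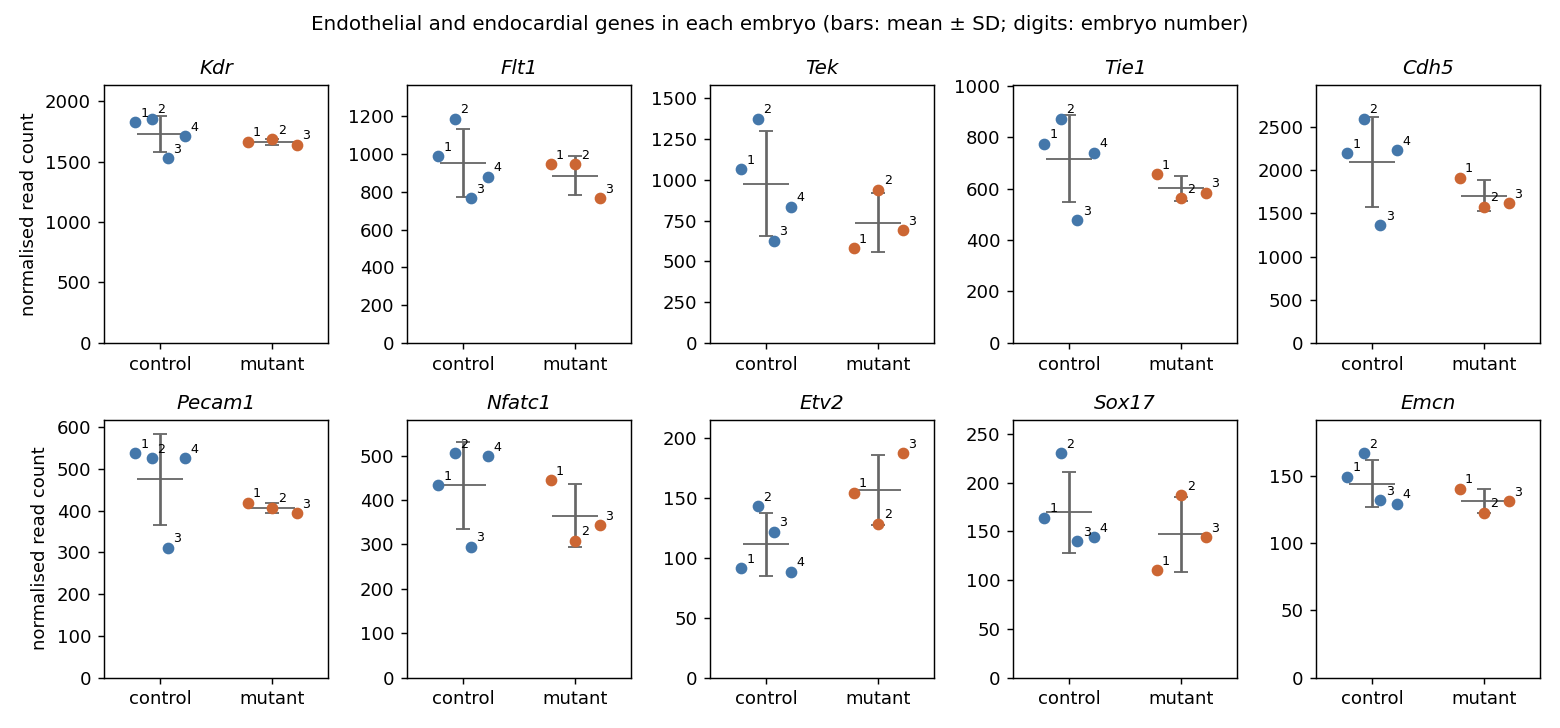
Normalised read count of each gene (y axis, from 0) in each control (blue) and mutant (orange) embryo, with group mean ± SD as grey bars and the embryo number beside each point. The groups overlap in all 10 panels. Control 3 has the lowest point for 6 genes (Kdr, Flt1, Tie1, Cdh5, Pecam1 and Nfatc1), and Etv2 is the 1 gene with a higher mutant mean.

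The VEGF receptors were the steadiest of the receptors. Kdr (ENSMUSG00000062960, chromosome 5, 75932827 to 75978458, GRCm38, protein coding) had normalised counts of 1829, 1856, 1530.0 and 1709.5 across the controls and 1664, 1688 and 1639.9 across the mutants. All 3 mutants lay inside the control range, and the coefficient of variation over the 7 embryos was 6.57%, the smallest of the 10 genes. Its difference was -0.05 (SE 0.07, 95% interval -0.22 to 0.12). Flt1 (ENSMUSG00000029648, chromosome 5, 147561604 to 147726011) had 987, 1188, 765 and 880.1 across the controls and 946, 946 and 765 across the mutants. Control 3 and mutant 3 were lowest and nearly equal, and control 2 was highest. Its difference of -0.10 (SE 0.15) became 0.01 when either control 2 or mutant 3 was left out. The log2 ratio of Flt1 to Kdr within a library, which does not depend on scaling, was -0.87 ± 0.16 (SD, n = 4) for the controls and -0.92 ± 0.16 (SD, n = 3) for the mutants (exact two-sided permutation test, p = 0.714, adjusted over 3 ratios 0.714, where 35 arrangements allow 0.0286 at the smallest).

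The angiopoietin receptor and its partner varied more. Tek (ENSMUSG00000006386, chromosome 4, 94739289 to 94874976) had 1066, 1375, 626 and 834 across the controls and 582, 940.0 and 692 across the mutants. It ran over a 2.36-fold range, the widest of the 10 genes, with control 2 at the top and mutant 1 at the bottom. The difference was -0.37 (SE 0.27, 95% interval -0.98 to 0.24). Without mutant 1 the Tek difference was -0.21. It was -0.02 in the females alone, 2 against 2, and -0.88 in the males, where mutant 1 faced 2 controls. Tie1 (ENSMUSG00000033191, chromosome 4, 118471191 to 118490061) had 774, 872, 478 and 739 across the controls and 656, 563 and 583 across the mutants. The mutants lay between control 3 and the other 3 controls, with a difference of -0.22 (SE 0.19). Tie1 and Tek did not keep a constant ratio. The log2 ratio of Tie1 to Tek was -0.46, -0.66, -0.39 and -0.17 across the controls and 0.17, -0.74 and -0.25 across the mutants, so mutant 1 was the 1 embryo with more Tie1 than Tek counts. The difference in that ratio was 0.15 (exact two-sided permutation test, p = 0.600, adjusted over 3 ratios 0.714), and without mutant 1 it was -0.07.

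The adhesion genes and the endocardial factor were each lowest in control 3. Cdh5, or VE-cadherin (ENSMUSG00000031871, chromosome 8, 104101625 to 104144511), had 2194, 2597, 1366 and 2233 across the controls and 1913, 1579 and 1619 across the mutants, which differed by -0.27 (SE 0.20). Pecam1 (ENSMUSG00000020717, chromosome 11, 106654217 to 106750628) had 537, 526, 311 and 525 across the controls and 419, 407 and 394 across the mutants, which differed by -0.19 (SE 0.19). For both genes every mutant lay below controls 1, 2 and 4 and above control 3. Nfatc1 (ENSMUSG00000033016, chromosome 18, 80606205 to 80713071) had 433, 505, 295 and 499 across the controls and 444, 308 and 343 across the mutants, where mutant 1 lay above control 1. The difference was -0.23 (SE 0.21). The log2 ratio of Nfatc1 to Cdh5, which sets an endocardial gene against a gene of all endothelium, was -2.27 ± 0.10 (SD, n = 4) for the controls and -2.23 ± 0.12 (SD, n = 3) for the mutants (difference 0.04, exact two-sided permutation test, p = 0.657, adjusted over 3 ratios 0.714).

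Without control 3, which carried the least heart muscle and the most neural tube RNA, the same genes differed by more but still did not pass. Every remaining control then lay above every mutant for 4 of 10 members (Kdr, Tie1, Cdh5 and Pecam1), against 8.57% of all genes. With all embryos, control 3 was the only control below the mutants for these 4 genes. Leaving it out therefore fixed that count in advance, and the count is no separate support for lower levels. Unadjusted p-values under 0.05 were reached by 6 of 10 members (Tek, Tie1, Cdh5, Pecam1, Nfatc1 and Etv2), against 13.4% of all genes. Control 3 was the lowest control for Tek, Tie1, Cdh5, Pecam1 and Nfatc1, so leaving it out raised their control means. For Etv2 it lay above the control mean, so leaving it out lowered that mean. These p-values are therefore no separate support for a difference either. The log2 fold change was -0.46 for Cdh5 (SE 0.10, limma adjusted p = 0.159), -0.38 for Pecam1 (SE 0.07, limma adjusted p = 0.152), -0.40 for Tie1 (SE 0.09, limma adjusted p = 0.175), -0.56 for Tek (SE 0.21, limma adjusted p = 0.321) and -0.40 for Nfatc1 (SE 0.14, limma adjusted p = 0.288). The median of the 10 was then -0.33. The controls then had neural tube levels of 3.63 to 4.83 and the mutants of 4.20 to 7.35, and the part of that tissue in the difference was not tested. In each of the other fits that left out 1 embryo, 0 members were lower without overlap, against 3.29% to 5.31% of all genes. In those fits 0 or 1 members had an unadjusted limma p under 0.05, against 2.4% to 3.69% of all genes. In the 4 females alone, 2 against 2, the median was -0.03, and Cdh5 stood at -0.11 and Etv2 at 0.55. In the males 1 mutant faced 2 controls, and Cdh5 stood at -0.33 and Etv2 at 0.45. In bulk RNA, fewer endothelial cells and less RNA per endothelial cell cannot be told apart.

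**Figure D2:**
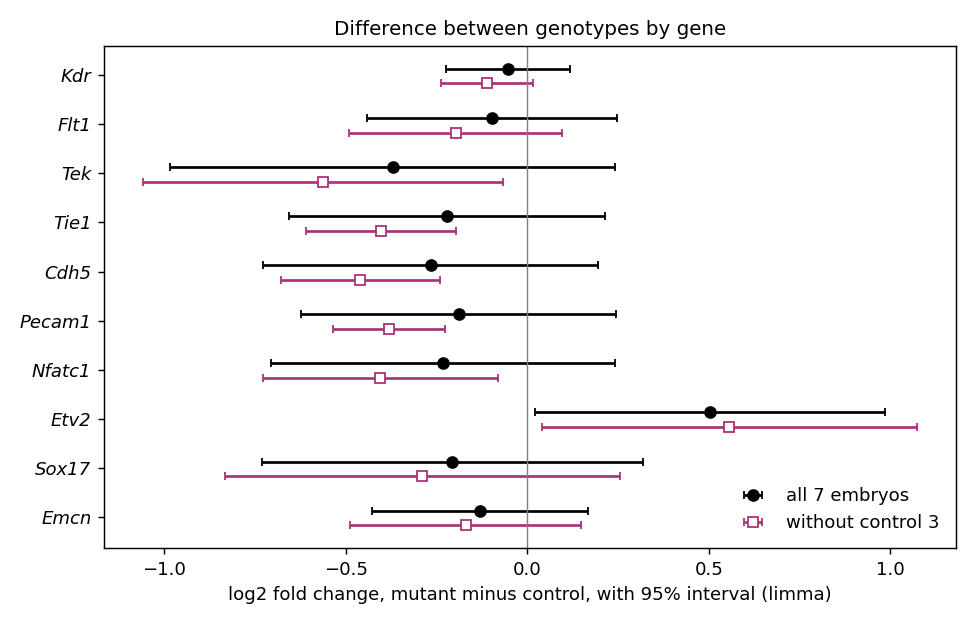
Log2 fold change (x axis, mutant minus control, on log2(normalised count + 1)) of each gene with its 95% interval from limma, for all 7 embryos (black circles) and without control 3 (open squares). With all embryos 9 estimates lie below 0 and their intervals include 0, and Etv2 lies at 0.50. Without control 3 the intervals of Tek, Tie1, Cdh5, Pecam1 and Nfatc1 lie below 0.

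Etv2, the early inducer of the endothelial lineage, was the exception. Etv2 (ENSMUSG00000006311, chromosome 7, 30633616 to 30635852) had normalised counts of 91.6, 143, 122 and 88.3 across the controls and 154, 129 and 187 across the mutants. Mutants 1 and 3 lay above every control, and mutant 2 lay below control 2. These values rest on 106, 156, 109 and 54 reads in controls and 158, 169 and 207 in mutants, so counting error is larger than for Cdh5, with 1221 to 2833 reads. The Etv2 mean was 111 ± 26.0 (SD, n = 4) for the controls and 157 ± 29.4 (SD, n = 3) for the mutants. The difference was 0.50 (SE 0.21, 95% interval 0.02 to 0.98, limma adjusted p = 0.967). The authors' deposited table of selected genes holds 0.991% of all 48526 genes listed. That list includes genes with no read, so this share cannot be set beside shares of the 15599 genes tested. Etv2 was the 1 member in the table of selected genes. The authors' deposited table gave it a ratio of 1.41 and unadjusted p-values of 0.0401 with DESeq2, 0.0378 with edgeR and 0.0408 with voom, and its Benjamini-Hochberg value in the authors' deposited table of all genes was 1. On the recovered reads the unadjusted p of Etv2 was 0.0477 with DESeq2, 0.0519 with edgeR and 0.0548 with limma-voom. In the fits that left out 1 embryo the Etv2 log2 fold change ran from 0.37 to 0.64. The mutants lay above all controls without control 2, against 5.53% of all genes, or without mutant 2, against 6.92%. With all embryos, control 2 above mutant 2 was the only overlap of the groups. Leaving out either embryo therefore fixed that result in advance, and it is no separate support for higher levels. In 4 of the 7 fits that left out 1 embryo, the 95% interval of Etv2 included 0. These were the fits without control 1, control 4, mutant 1 or mutant 3. Per 1000 Cdh5 counts there were 41.7, 55.1, 89.3 and 39.6 Etv2 counts in controls and 80.7, 81.4 and 116 in mutants. That ratio was chosen after its values were seen and is given with no test. Control 3 lay within the mutant range for it.

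The factor Sox17 and the surface protein Emcn were the least abundant per length. Sox17 (ENSMUSG00000025902, chromosome 1, 4490931 to 4497354) had 164, 230.1, 139.8 and 144 across the controls and 110.3, 187 and 144 across the mutants, which differed by -0.21 (SE 0.23). Like Tek, it was lowest in mutant 1 and highest in control 2, and among females alone its difference turned to 0.11. Emcn (ENSMUSG00000054690, chromosome 3, 137341067 to 137432185) had 149, 167, 132 and 129 across the controls and 141, 123 and 131 across the mutants, which differed by -0.13 (SE 0.13). Gm37587, on the opposite strand, shares 804 exon bases with Sox17 but had at most 3 reads in any library. The yolk sac endoderm markers were also lowest in mutant 1, with a mean log2 level over 12 genes of 5.34 against 7.51 to 9.12 in the other 6 embryos. Their part in the low Tek and Sox17 of mutant 1 was not tested.

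Per kilobase of merged exons the order of the 10 genes was led by Cdh5, at 459 ± 104 normalised counts per kilobase (SD over 7 embryos), which lay above Kdr in 7 of 7 embryos with no overlap of their ranges. Kdr (189 ± 12.4 per kilobase) and Tek (185 ± 59.6 per kilobase) came next, and Kdr was the higher in 4 of 7. Tie1 (136 ± 27.8 per kilobase), Etv2 (125 ± 33.3 per kilobase), Pecam1 (71.6 ± 13.8 per kilobase) and Flt1 (68.5 ± 10.8 per kilobase) followed, where Tie1 exceeded Etv2 in 3 of 7 embryos and Pecam1 exceeded Flt1 in 3 of 7. Nfatc1 (54.1 ± 11.8 per kilobase), Sox17 (33.5 ± 8.15 per kilobase) and Emcn (25.7 ± 2.79 per kilobase) closed the order. Except between Cdh5 and Kdr, the ranges of all neighbours in this order overlapped.

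Markers of other tissues varied between the same embryos. For 6 of the 10 genes the lowest library was control 3, against 23.3% of all genes tested. So it was for 9 of 10 cardiomyocyte markers, 5 of 6 tested smooth muscle and pericyte markers and 0 of 10 tested neural tube markers. The summed level of the cardiomyocyte list was 47648 to 140472 normalised counts in controls and 51764 to 107740 in mutants. The embryonic globins Hbb-bh1 and Hba-x had at most 83.0 and 152 normalised counts, both were at 0 in control 3 and mutant 3, and Ptprc, the leukocyte marker CD45, had at most 3.27. The other alpha globins were highest in control 4, with Hba-a1 at 355 and Hba-a2 at 141. Without the transferrin receptor gene Tfrc, which many other cells express and which was left out after its values were seen, the other 11 genes of the erythroid list summed to 96.2 to 705 normalised counts in controls and 132 to 379.8 in mutants.

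**Figure D3:**
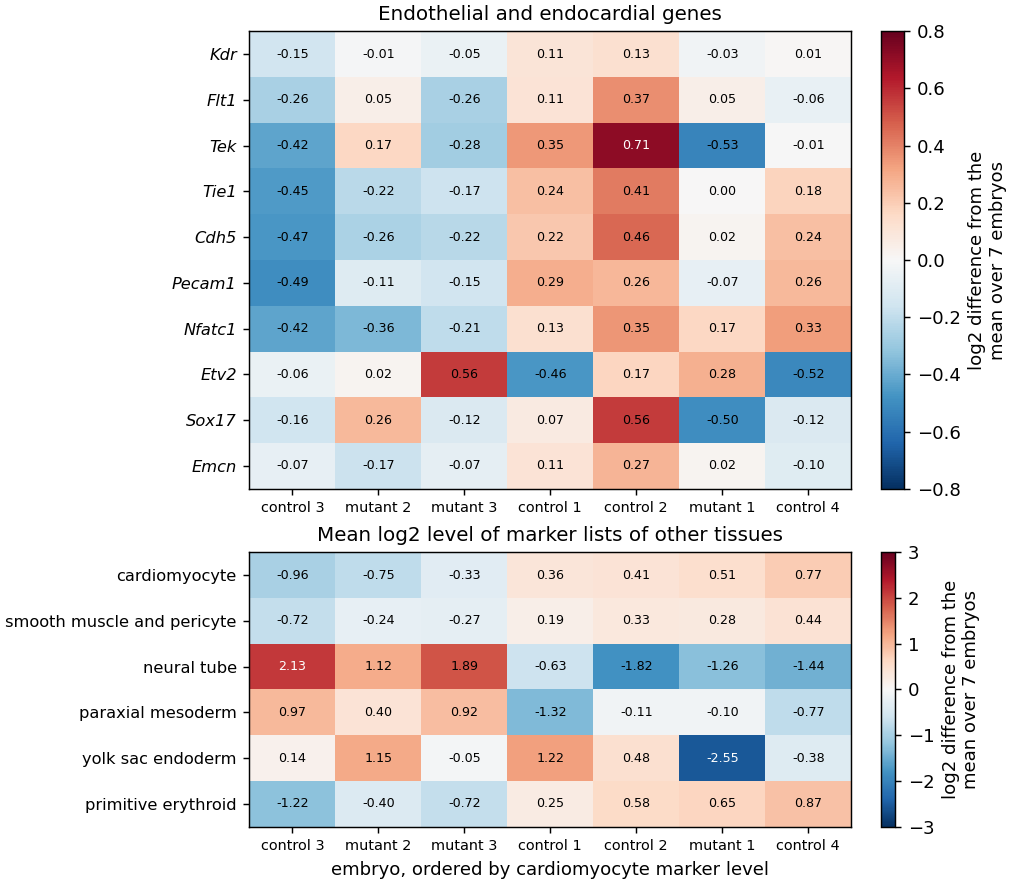
Difference of each gene (upper panel) and of the mean level of each marker list (lower panel) from its mean over the 7 embryos, on the log2(normalised count + 1) scale, with embryos (x axis) ordered by cardiomyocyte marker level. Control 3, at the left, has low values of Tek, Tie1, Cdh5, Pecam1 and Nfatc1, the lowest cardiomyocyte level and the highest neural tube level. Mutant 1 has the lowest Tek, Sox17 and yolk sac levels.

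Between the sexes, which the file header ties to substage so that both cannot be told apart, 9 of 10 members were higher in males at E8.5f after allowing for genotype, with a median log2 difference of 0.15 against 0.01 over all genes. Nfatc1 was 0.47 higher in males (SE 0.13, limma adjusted p = 0.403) and Cdh5 0.39 higher (SE 0.16, limma adjusted p = 0.452). By limma 0 of 10 members passed, against 0.0449% of all genes, and 2 of 10 had an unadjusted p under 0.05, against 10.5% of all genes. All 10 cardiomyocyte markers were also higher in males, with a median of 0.87. Without control 1 the females left were control 3 and mutants 2 and 3, the embryos with the most neural tube RNA, and 1 of 10 members, Nfatc1, passed (0.61, SE 0.11, limma adjusted p = 0.0257), against 4.41% of all genes.

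The wider vascular lists held 84 other genes, of which 83 were tested: 51 were lower and 32 higher in mutants, their median difference was -0.09, and 0 passed in either direction. Of the ligands, Vegfa, the ligand of Kdr and Flt1, stood at 0.05 (SE 0.11), Vegfb at 0.04 (SE 0.10), Vegfc at 0.07 (SE 0.12), Vegfd at -0.21 (SE 0.28) and Pgf, which binds Flt1, at -0.18 (SE 0.19). Angpt1, the activating ligand of Tek, had 559, 634, 284 and 639.6 normalised counts in controls and 454, 349 and 315 in mutants (difference -0.45, SE 0.28), with control 3 again the lowest. Angpt2, the other Tek ligand, had 121, 154, 136 and 279.7 across the controls and 144, 115 and 93.2 across the mutants (-0.49, SE 0.29), with control 4 well above the rest.

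Other receptors and partners were in the same list. The semaphorin and VEGF co-receptor Nrp1 stood at -0.32 (SE 0.25), its relative Nrp2 at -0.07 (SE 0.06), the VEGF-C receptor Flt4 at -0.01 (SE 0.14) and the semaphorin receptor Plxnd1 at -0.04 (SE 0.09). Ptprb, the phosphatase that opposes Tek, had 214, 225, 144 and 182 across the controls and 156, 136 and 140.2 across the mutants. Mutants 2 and 3 lay below every control, mutant 1 lay above control 3, and the Ptprb difference was -0.39 (SE 0.16). In this list of 12 genes 9 were lower and 3 higher, with a median of -0.13.

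Of 20 endothelial transcription factors 12 were lower and 8 higher (median -0.12). Sox7, a partner of Sox17 in vessels, stood at -0.22 (SE 0.10), the venous and atrial factor Nr2f2 at -0.22 (SE 0.08) and Foxc1, which paraxial mesoderm also expresses, at 0.45 (SE 0.20). The 9 paraxial mesoderm markers summed to 510.5 to 2730.0 across the controls and 1400.0 to 3208 across the mutants, and their part in the Foxc1 value was not tested. Of 27 tested surface and junction genes 18 were lower (median -0.16). Acvrl1, the endothelial receptor of BMP9, had 231, 236, 202 and 199.6 across the controls and 167, 180.4 and 194 across the mutants. Its groups did not overlap (difference -0.26, SE 0.11), which held for 1 of the 83 genes (1.2%), against 2.08% of all genes that were lower without overlap. The junction gene Esam stood at -0.29 (SE 0.14) and the lymphatic receptor Lyve1, at 8.79 to 50.4 normalised counts, at -1.14 (SE 0.50).

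Of the endocardial genes 7 of 13 were lower and 6 higher (median -0.01). The natriuretic peptide receptor gene Npr3 stood at -0.27 (SE 0.16), the cardiac jelly regulator Heg1 at 0.11 (SE 0.07) and Tmem100, a target of Acvrl1 signalling, at -0.65 (SE 0.32). Arterial genes were lower in 7 of 12 (median -0.05), with the chemokine receptor Cxcr4 at 0.22 (SE 0.16) and the endothelial Notch receptor Notch4 at -0.26 (SE 0.19). Of 5 venous genes 3 were lower (median -0.01), and the apelin receptor gene Aplnr stood at 0.06 (SE 0.16). None of these genes passed by limma, and 3 of the 83 (3.61%), Nr2f2, Ptprb and Acvrl1, had an unadjusted p under 0.05, near the 3.83% of all genes.

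**Figure D4:**
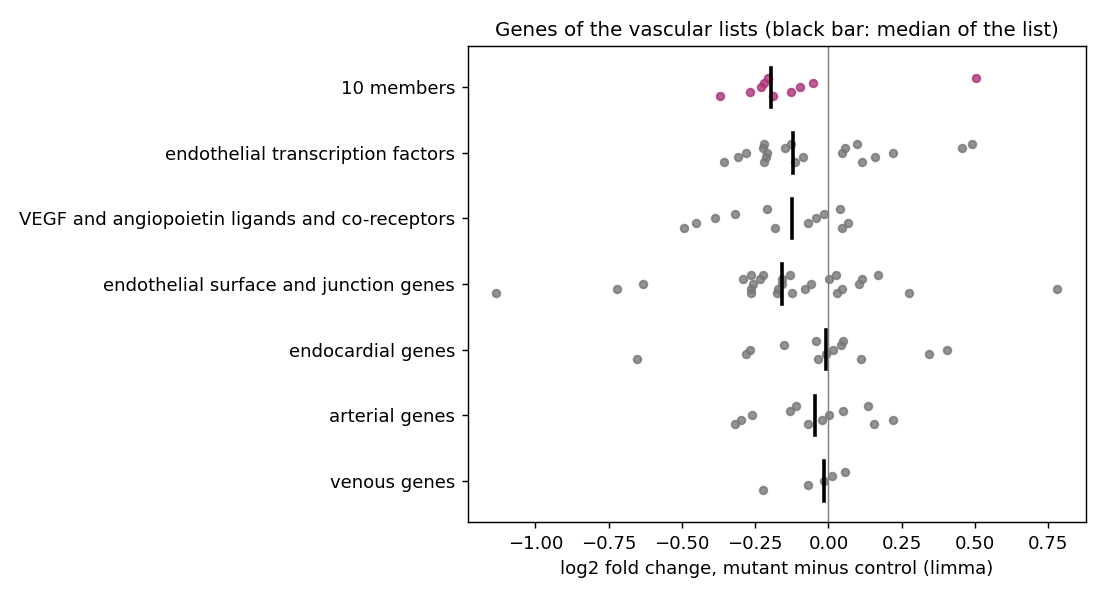
Log2 fold change (x axis, mutant minus control, limma) of every tested gene in the 10-member set and in each wider vascular list, with the median of each list as a black bar. All medians lie between -0.20 and -0.01, and Etv2 at 0.50 is the lone member to the right of 0.

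Over the 7 libraries, among 10369 genes with a mean normalised count of at least 100, the 5 whose log2 levels were most like Cdh5 by Pearson's r were Tgfb1 (r = 0.995), Asb4 (r = 0.994), Tie1 (r = 0.994), Frmd4b (r = 0.990) and Slc36a4 (r = 0.986). The 5 most like Nfatc1 were Prkg1 (r = 0.990), Hspb2 (r = 0.990), Grb10 (r = 0.990), Zyx (r = 0.989) and Pgm5 (r = 0.987). Of the 50 genes most like Cdh5, 5 were in the vascular lists, which held 78 of the genes ranked (0.752%). Of the 50 most like Nfatc1, 2 were, and 5 were in the muscle marker lists. These were Actc1 and Myh7 of the cardiomyocyte list and Myh11, Tagln and Acta2 of the smooth muscle and pericyte list. The marker lists are short, so 5 is not a count of all muscle genes among the 50. Tnni3 (r = 0.985), Mybpc3 (r = 0.975) and Ryr2 (r = 0.974), for example, were among the 50 but in no list. The share of muscle genes among all genes ranked was not counted. Of the 50 most like Cdh5, 0 were in any list of other tissues. These are descriptions with no p: the 7 libraries differ in muscle and neural tube RNA together, and how far that sets these values was not tested.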

How the data were processed

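RNA of the dissected cardiac region of single embryos was sequenced from polyadenylated RNA with a strand-keeping kit, per the labels' protocols. The submitters' processing notes name the build GRCm38 and the tools limma, edgeR, DESeq2, Subread, featureCounts and HISAT2. Their versions, their settings and whether counting used strand are not given in the sources used. The deposited library values are a normalised signal, in which each library's gene counts were scaled by a single size factor: 100% of values above 0 were whole multiples of a step within 0.1, so whole reads were recovered. The authors' deposited tables also hold a ratio of means and p-values. Because the values are not raw counts, limma 3.58.1 (trended empirical Bayes, R 4.3.3) on log2(value + 1), which understates changes of low genes, was the main test; edgeR 4.0.16, DESeq2 1.42.0 and limma-voom on recovered reads were alternatives. Tested genes reached 10 normalised counts in 3 or more libraries (15599 of 48526). Adjusted p-values are Benjamini-Hochberg over all genes tested, threshold 0.05. Coordinates and merged exon lengths are from GENCODE M21 (GRCm38), promoters from RefSeq. The limma fit was tested on simulated data. The members, lists and tests were chosen with earlier results of these data known. Named genes are all members, all VEGF and angiopoietin genes, the 3 genes of smallest p in each other list, and the 5 genes most like Cdh5 and Nfatc1; Nodal, Lefty2 and marker genes were named beside them as checks. Each embryo is 1 replicate, and no label pairs embryos. Precision is limited by the number of embryos, and for genes of few reads by counting error. Of 175 list symbols 172 matched the table.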

Additional observations from a re-analysis of the deposited data

Results flagged for a closer look

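In the control group of 4, a single embryo lay far from the other 3 for 3 of 37 genes screened, by a gap test (Dixon, 95% level) that chance passes in about 1 of 20 groups. In each case the embryo was control 3. All genes were screened in the same 4 embryos, so these flags are not independent of each other. Pecam1 was 310.9 normalised counts in control 3 and 525 to 537 in the other controls. Notch4 was 159.9 in control 3 and 259 to 269.9 in the others. Foxc1 was 804.1 in control 3 and 428 to 489 in the others. Control 3 also had the lowest cardiomyocyte level and the highest neural tube level of the 7 embryos.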

How the results depend on the processing

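All 10 members stayed uncalled between genotypes in each of the 18 alternative fits, and 8 kept their direction in all of them. Flt1 turned to 0.01432 without control 2 and 0.005033 without mutant 3, and Sox17 to 0.1148 in females alone. Single embryos moved the median of the 10 members from -0.09 without control 2 to -0.33 without control 3, with -0.20 in the full fit, and it was -0.03 in females alone. The number of genes called over all genes, 2 in the full fit, was 1 with edgeR, 8 with DESeq2, 0 with limma-voom, 1 with sex as a covariate and 0 in females alone, and it ran from 1 to 10 when single embryos were left out, the 10 without control 3. The Flt1 to Kdr difference of -0.04369 ran from -0.0947 to 0.04778 when single embryos were left out (0.0325 without control 2, the upper end without mutant 3). The Tie1 to Tek difference of 0.1504 ran from -0.0712 to 0.3842 and was -0.06596 in females alone. The Nfatc1 to Cdh5 difference of 0.03501 ran from -0.02872 to 0.09611 and was -0.02242 in females alone. Between the sexes, 7 genes were called, from 1 to 680 when single embryos were left out, and 0 to 1 members, the 1 being Nfatc1 without control 1. The cause of these changes was not tested. A genotype by sex interaction was fitted after seeing the data (limma). The males held 1 mutant, so this fit rests on that embryo and cannot show whether the sexes agree. The log2 interaction was -0.86 for Tek and -0.83 for Sox17, and ran from -0.30 (Pecam1) to 0.08 (Emcn) for the other members. No paired analysis was possible because the labels carry no replicate numbers, and those used here follow accession order and tie no embryos across the groups. Counting error is largest for Etv2, Sox17 and Emcn, with 54 to 251 reads per library.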
